A study of Arabidopsis thaliana with 8 samples.

Results

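The PYR/PYL proteins are the intracellular receptors of the drought hormone abscisic acid (ABA). The receptor genes described here are PYR1, PYL1, PYL2, PYL4, PYL5, PYL6, PYL7, PYL8 and PYL9 of Arabidopsis thaliana, chosen by locus (AT4G17870, AT5G46790, AT2G26040, AT2G38310, AT5G05440, AT2G40330, AT4G01026, AT5G53160 and AT1G01360, in that order). They are 9 of the 20701 gene loci in the deposited mRNA table, and 9 of 9 had enough reads to be tested. Messenger RNA came from whole seedlings of the Columbia accession, 10 days after germination, grown at 22 °C with 18 h of light and 6 h of dark. The wild type (WT) was compared with seedlings that carried 35S:CAHB12, a coffee homeodomain-leucine zipper gene of class I driven by the constitutive 35S promoter, which is active in most plant tissues. There were 2 libraries of each genotype, and every library was made from 1 pool of 50 seedlings, called pool 1 or pool 2 after its replicate number. The labels call the pools of a genotype biological replicates, without saying how they were grown apart, so p-values measure the spread between these pools. The design text speaks of a pair of transgenic lines, but no library is tied to a line. The coffee transgene itself was not measured here, so its level in the CAHB12 libraries is not known.

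When ABA binds a PYR/PYL receptor, a gate and a latch loop close over the hormone and the receptor docks onto a clade A protein phosphatase (PP2C). The phosphatase is thereby held off the SnRK2 kinases, which then phosphorylate ABF transcription factors and the guard cell anion channel. The family falls into subfamily III (here PYR1, PYL1 and PYL2), whose members form dimers without ABA, and the mostly monomeric subfamilies II (here PYL4, PYL5 and PYL6) and I (here PYL7, PYL8 and PYL9). In Arabidopsis, ABA lowers the transcripts of several receptors and raises those of most clade A PP2C genes.

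The libraries held 15682546 and 19436632 counts (WT pools 1 and 2) and 15424261 and 16615556 counts (CAHB12 pools 1 and 2). Leaf mesophyll, root, guard cell and phloem markers were present in every library, as whole seedlings should give. Summed mesophyll markers (RBCS1A, LHCB1.1 and LHCB2.1) ranged from 13109 to 15220 CPM (counts scaled to library size), and the 4 root markers from 1151 to 1530 CPM. Seed markers differed most, at 19.7 and 45.8 CPM in the WT pools and 2.21 and 119 CPM in the CAHB12 pools, over 4 of 5 markers listed. Since whole seedlings were extracted, fewer cells that express a receptor and less RNA per cell cannot be told apart.

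PYL4 and PYR1 were the most abundant receptor transcripts, PYL8 came next, and PYL2 and PYL6 were near the bottom of the range. Levels between genes are given per length, as RPKM (reads scaled to library size and gene length), from the lengths the authors deposited. PYL4, a monomeric receptor, stood at 60.4 and 120.8 RPKM in the WT pools and at 75.7 and 104.6 RPKM in the CAHB12 pools. PYR1, the receptor found through the synthetic agonist pyrabactin, stood at 74.4 and 95.6 RPKM in WT and at 72.2 and 91.8 RPKM in CAHB12 seedlings. In both genotypes the pool 2 library was the higher one for each of these genes, and the genotypes overlapped. PYL8, which acts in the ABA response of roots, stood at 30.1 and 39.0 RPKM in WT and at 40.0 and 50.4 RPKM in CAHB12 seedlings, so its groups did not overlap.

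PYL1, a dimeric receptor close to PYR1, ranged only from 26.3 to 28.6 RPKM over the 4 libraries, and PYL7 from 18.6 to 22.3 RPKM. PYL5 was more variable, from 20.1 RPKM in WT pool 1 to 35.2 RPKM in WT pool 2. PYL9, which acts in leaf ABA responses and senescence, ranged from 7.87 to 8.96 RPKM. PYL2 ranged from 1.88 to 3.68 RPKM and PYL6 from 0.354 to 2.76 RPKM. By mean over the 4 libraries the order was PYL4, PYR1, PYL8, PYL1, PYL5, PYL7, PYL9, PYL2 and PYL6. PYL4 and PYR1 overlapped in range and kept this order in 3 of 4 libraries. PYL1 and PYL5 also overlapped, as did PYL5 and PYL7, each pair with the order kept in 3 of 4 libraries. PYL2 and PYL6 overlapped in range, although PYL2 was above PYL6 in 4 of 4. The steps from PYR1 to PYL8, from PYL8 to PYL1, from PYL7 to PYL9 and from PYL9 to PYL2 were without overlap.

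The deposited lengths set these levels in part. They are labelled transcript length, and over all genes matched their median was 0.939 of the gene span in a later annotation. Apart from that of PYL7, the receptor lengths lay farther from the later spans. These spans were from 1.05 (PYL7) to 2.25 (PYL2) times the deposited length, with PYR1 at 1.53 and PYL1 at 1.56. The length given for PYL2 is 572 bases and its later span 1285 bases. Whether a deposited length includes introns was not tested. With the later spans as lengths PYL4, PYR1 and PYL8 stayed in the top places and PYL9, PYL2 and PYL6 in the last, but PYL1 moved from place 4 to place 6, behind PYL5 and PYL7. The later gene model of PYL7 overlaps that of AT4G01030 by 571 bases and that of the long noncoding RNA AT4G03845 by 269 bases, and reads may be shared. AT4G01030 itself had 399, 443, 383 and 397 counts (WT pools 1 and 2, then CAHB12 pools 1 and 2). No other receptor gene overlapped an annotated gene there.

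**Figure D1:**
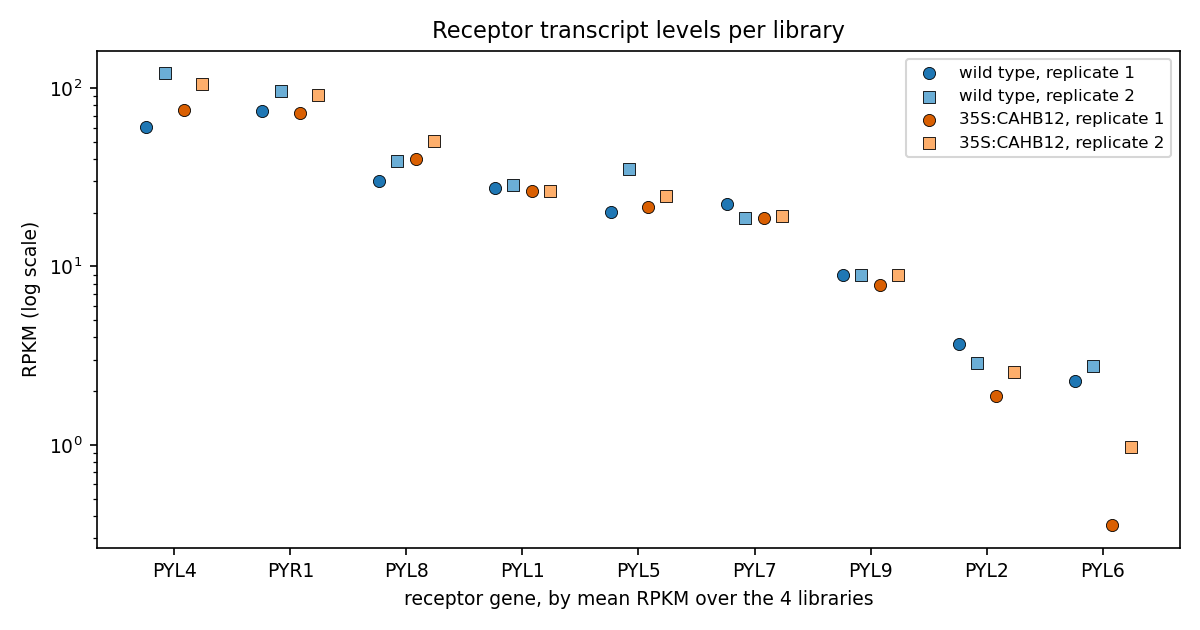
Level of each receptor gene in RPKM on a log axis, with 1 point per library. Blue points are wild type and orange points 35S:CAHB12, with circles for replicate 1 and squares for replicate 2. PYL4 and PYR1 lie at 60.4 RPKM and above, and for PYL6 both transgenic points, at 0.354 and 0.975 RPKM, lie below both wild-type points.

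As a pool, the transcripts of the 9 receptor genes described here were spread over all 3 subfamilies. Shares are of the sum over these 9 genes only. Subfamily II supplied 33.1% and 45.0% of the summed receptor RPKM in the WT pools and 36.9% and 39.5% in the CAHB12 pools. Subfamily III supplied 42.3% and 36.1% in WT and 38.0% and 36.7% in CAHB12 seedlings. Subfamily I supplied 24.5% and 18.9% in WT and 25.1% and 23.8% in CAHB12 seedlings. For each subfamily the genotypes overlapped, and WT pools 1 and 2 were farther apart than the CAHB12 pools.

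Within the pool, PYL8 and PYL6 had shares that separated the genotypes by more than the replicate spread. The PYL8 share was 12.0% and 11.1% in the WT pools and 15.1% and 15.3% in the CAHB12 pools, or 11.6% ± 0.677 against 15.2% ± 0.116 (SD, n = 2). The PYL6 share was 0.908% and 0.782% in WT and 0.134% and 0.296% in CAHB12 seedlings. The PYL2 share also did not overlap, at 1.475% and 0.821% in WT and 0.710% and 0.782% in CAHB12 seedlings. For PYL2 the WT pools lay farther apart than the genotype means. With 2 libraries against 2, an exact two-sided permutation test cannot go below p = 0.333, so the shares were not tested. Depth and scaling between libraries cancel in a share, while the lengths do not. The summed receptor RPKM was 250 and 352 in the WT pools and 265 and 329 in the CAHB12 pools. This sum was higher in pool 2 of each genotype, as was PYL8, so that pool difference partly cancels in the PYL8 share. Shares of other genes were not computed, so there is no background rate for shares that do not overlap.

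**Figure D2:**
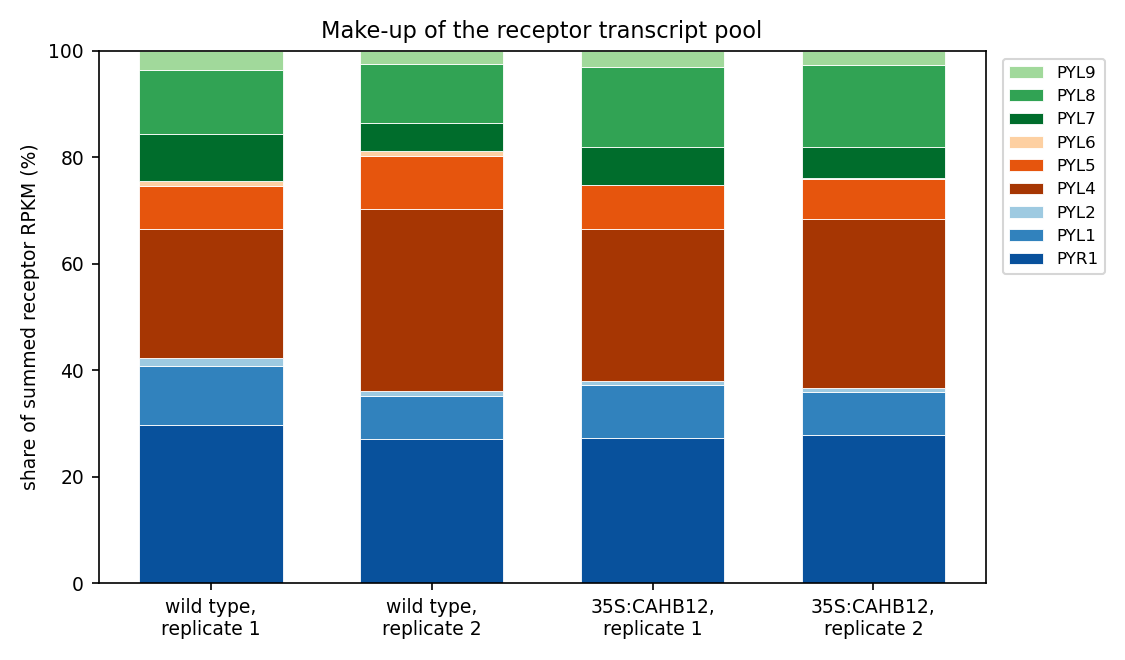
Share of each receptor gene in the summed receptor RPKM of a library, in percent, as stacked bars with 1 bar per library. Blue shades are subfamily III, orange shades subfamily II and green shades subfamily I. PYL4 takes from 24.2% to 34.3%, and the PYL8 band is thicker in both CAHB12 libraries.

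The main comparison asked which transcripts differ in seedlings that carry the coffee gene. For the receptors, PYL6 had the largest difference and had its lower values in the CAHB12 libraries, PYL8 and PYL2 had log2 fold changes of 0.39 and -0.55, PYL5 of -0.26, and the others lay between -0.12 and -0.0095, but none passed the test. edgeR's quasi-likelihood test with Benjamini-Hochberg adjustment over 20298 genes called 0 of the 9 receptors at an adjusted p under 0.05, against 0.0838% of all genes tested. DESeq2 and limma also called 0 of 9. An unadjusted p under 0.05 in edgeR was reached by 1 of the 9 with a higher and 1 with a lower level, against 3.7% and 4.22% of all genes. The median log2 fold change of the receptors was -0.092, beside 0.0065 for all genes tested, and 8 of the 9 lay below 0.

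PYL6, a monomeric receptor of subfamily II reported to bind the jasmonate factor MYC2, had 38 and 57 counts in the WT pools and 6 and 17 counts in the CAHB12 pools. These correspond to 2.43 and 2.95 CPM in WT and to 0.379 and 1.04 CPM in CAHB12 seedlings. Both CAHB12 libraries lay below both WT libraries, and the CAHB12 libraries differed from each other. The exact 95% Poisson intervals of the nearest libraries, 1.72 to 3.33 CPM in WT pool 1 and 0.608 to 1.67 CPM in CAHB12 pool 2, did not overlap. Such intervals cover counting error only. The log2 fold change was -1.91 (SE 0.42, 95% interval -2.87 to -0.94), a level 3.75-fold lower, at edgeR adjusted p = 0.27. A log2 fold change of -1 or below was found in 0.739% of all genes tested. With 1 library left out the value ran from -2.81 (without CAHB12 pool 2) to -1.38 (without CAHB12 pool 1), and the gene passed in none of these 4 fits.

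The other subfamily II receptors had larger counts and log2 fold changes nearer 0. PYL4 had 66.7 and 133 CPM in WT and 83.7 and 115.6 CPM in CAHB12 seedlings, with both transgenic values inside the WT range. Its log2 fold change was -0.0095 with a 95% interval from -0.67 to 0.65. PYL5 had 24.1 and 42.1 CPM in WT and 25.9 and 29.5 CPM in CAHB12 seedlings, again inside the WT range. Its log2 fold change was -0.26 (95% interval -0.79 to 0.26). These intervals allow changes of up to 1.57-fold higher for PYL4 and do not show that the genes were unaffected.

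In subfamily I, PYL8 had 46.4 and 60.2 CPM in WT and 61.7 and 77.7 CPM in CAHB12 seedlings. Both CAHB12 libraries were above both WT libraries, although CAHB12 pool 1 was barely above WT pool 2. The log2 fold change was 0.39 (SE 0.15, 95% interval 0.034 to 0.74), a level 1.31-fold higher, at edgeR adjusted p = 0.605. It ran from 0.21 (without CAHB12 pool 2) to 0.58 (without WT pool 2) with 1 library left out, and passed in none of these 4 fits. PYL7 had 32.5 and 27.2 CPM in WT and 27.1 and 27.9 CPM in CAHB12 seedlings, a log2 fold change of -0.12. PYL9 had 10.9 and 10.9 CPM in WT and 9.54 and 10.9 CPM in CAHB12 seedlings, with a log2 fold change of -0.089.

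In subfamily III, PYR1 and PYL1 were nearly level between genotypes. PYR1 had 62.5 and 80.3 CPM in WT and 60.7 and 77.1 CPM in CAHB12 seedlings, a log2 fold change of -0.053 (95% interval -0.40 to 0.30). PYL1 had 24.5 and 25.4 CPM in WT and 23.4 and 23.4 CPM in CAHB12 seedlings, with a log2 fold change of -0.092 (95% interval -0.34 to 0.15). Its interval was among the narrowest of the family and reached a 1.11-fold higher level at its upper end. PYL2 rested on few reads, with 33 and 32 counts in WT and 17 and 24 counts in CAHB12 seedlings. Its log2 fold change was -0.55 with a 95% interval from -1.29 to 0.20, at edgeR adjusted p = 0.708. Both CAHB12 pools were above both WT pools for 1 of the 9 receptors (PYL8), against 20.2% of all genes tested, and below them for 3 (PYL1, PYL2 and PYL6), against 19.3%. Root markers summed to 1224 and 1151 CPM in WT and to 1530 and 1389 CPM in CAHB12 seedlings, and their part in these values was not tested.

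**Figure D3:**
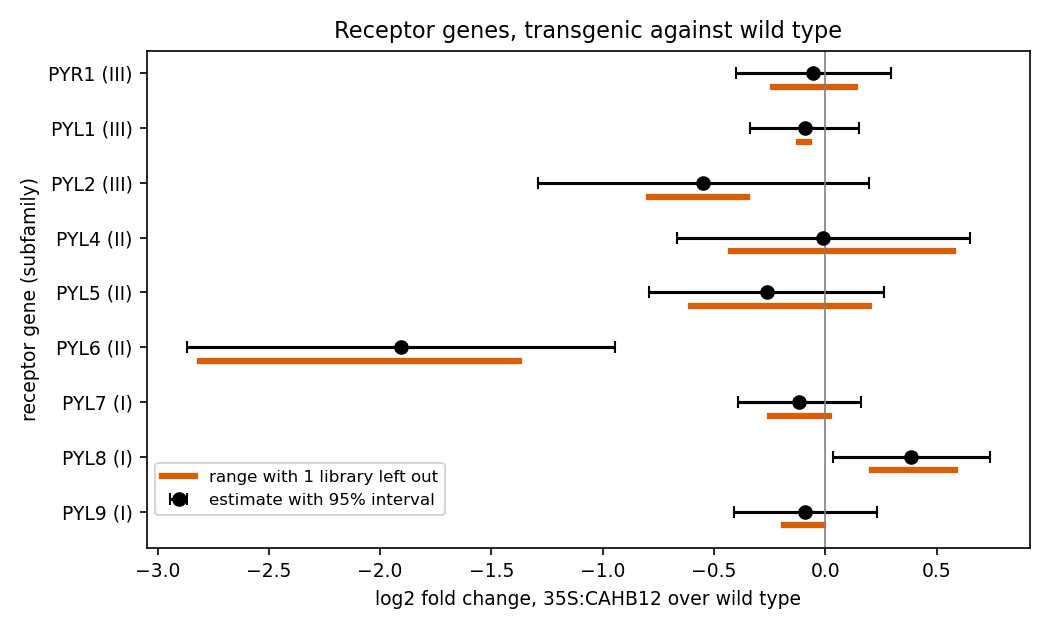
Log2 fold change of each receptor gene, transgenic over wild type, with its 95% interval from edgeR (black) and the range of the estimate when 1 library is left out (orange). The subfamily stands in brackets. PYL6, at -1.91, and PYL8, at 0.39, have intervals that do not reach 0, but neither passed after adjustment over all genes.

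The genes whose pattern over the 4 libraries lay closest to that of PYL6 were AT1G26250, AT2G19970 and AT1G05700. Likeness was the Euclidean distance between log2 CPM profiles centred on their own mean, among 15540 genes with a mean of at least 5 CPM. PYL6 itself lay below that mean, with at most 2.95 CPM in a library. The distances were 0.38, 0.52 and 0.83. AT1G26250 had 8.68 and 8.48 CPM in WT and 1.07 and 3.31 CPM in CAHB12 seedlings, like PYL6 with its lowest value in CAHB12 pool 1. AT2G19970 had 8.75 and 9.72 CPM in WT and 2.402 and 3.81 CPM in CAHB12 seedlings. AT1G05700 had a log2 fold change of -1.57 (SE 0.19, edgeR adjusted p = 0.0442). These genes were chosen for likeness to PYL6 in these same libraries, so lower CAHB12 values followed from the choice. The p-value is therefore no separate evidence of a genotype effect. The call was lost without either one of the CAHB12 pools, with log2 fold changes of -1.48 and -1.68. It was also lost with limma (adjusted p = 0.119 and 0.127 at pseudocounts of 0.5 and 0.1). The genes closest to PYL4, the most abundant receptor, were the auxin-related gene IAA29, the polyol transporter gene PMT6 and AT1G59710, at distances of 0.085, 0.11 and 0.14. IAA29 had 6.45 and 13.8 CPM in WT and 8.66 and 12.2 CPM in CAHB12 seedlings.

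Pools of the same genotype differed in the receptors as well. PYL4, PYL5, PYR1 and PYL8 were higher in the libraries numbered 2 than in those numbered 1, in each genotype. The comparison of the numbers, with genotype as a term in edgeR, called 4 of the 9 receptors higher and 0 lower, against 1.37% of all genes called higher and 1.51% lower. The labels do not say that a number marks a shared culture or batch, so this is a difference between the libraries that carry these numbers. The fit leaves 1 residual degree of freedom per gene, so its SE and p-values lean on the spread shared over genes. PYL4 had a log2 difference of 0.73 (SE 0.10, edgeR adjusted p = 0.000651), or 1.66-fold, with 1.00 between the WT libraries and 0.47 between the transgenic ones. PYL5 had a log2 difference of 0.51 (SE 0.12, edgeR adjusted p = 0.0329), PYR1 of 0.35 (SE 0.081, edgeR adjusted p = 0.0241) and PYL8 of 0.35 (SE 0.082, edgeR adjusted p = 0.0273). PYL1, PYL2, PYL7 and PYL9 had log2 differences between -0.11 and 0.091, and PYL6 had 0.57 with an interval from -0.18 to 1.32. DESeq2 called 1, PYL4, of the 7 to which it gave an adjusted p (PYL2 and PYL6 had none), and edgeR without the genotype term called 0 of the 9 and 0 of all genes, with 1376 genes at an unadjusted p under 0.05.

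Among the clade A PP2C phosphatases, the direct partners of the receptors, 0 of the 7 tested were called higher and 2 lower in the libraries numbered 2, with a median log2 difference of -0.37, beside -0.0012 for all genes. Of the 5 ABA synthesis genes 2 were called lower, as were 3 of the 8 receptor partners and turnover factors. Of the 10 ABA-induced output genes 2 were called lower, with 0 called higher in these lists. Over all genes 1.51% were called lower and 1.37% higher. DESeq2 called 95 of all genes in this comparison, and edgeR without the genotype term called 0. The genes given next were chosen after their values were seen. PP2CA had 116.8 and 86.4 CPM in WT and 93.9 and 73.6 CPM in CAHB12 seedlings (pools 1 and 2), and ABI2 had 17.5 and 13.9 CPM and 17.7 and 11.4 CPM. NCED3, the gene of a rate-limiting step in ABA synthesis, had 23.9 and 15.6 CPM in WT and 18.4 and 10.8 CPM in CAHB12 seedlings. The ABA-induced gene RD29A had 386 and 199 CPM in WT and 207 and 113 CPM in CAHB12 seedlings. In each of these genes pool 2 was the lower library of its genotype. Not all ABA-induced output genes were lower in the libraries numbered 2, and the list median was -0.14. EM1 and EM6 had log2 differences of 1.64 and 1.88 (edgeR adjusted p = 0.0595 and 0.0738), and RD29B had 0.012. Of the 10 SnRK2 kinases, 0 were called higher and 0 lower in this comparison. Summed over genes and per length, the 9 receptors stood at 1.74 and 3.33 times the 7 PP2C genes in the WT pools. In the CAHB12 pools they stood at 2.29 and 3.48 times. The seed markers were also higher in pool 2 of each genotype, and their part in these differences was not tested.

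**Figure D4:**
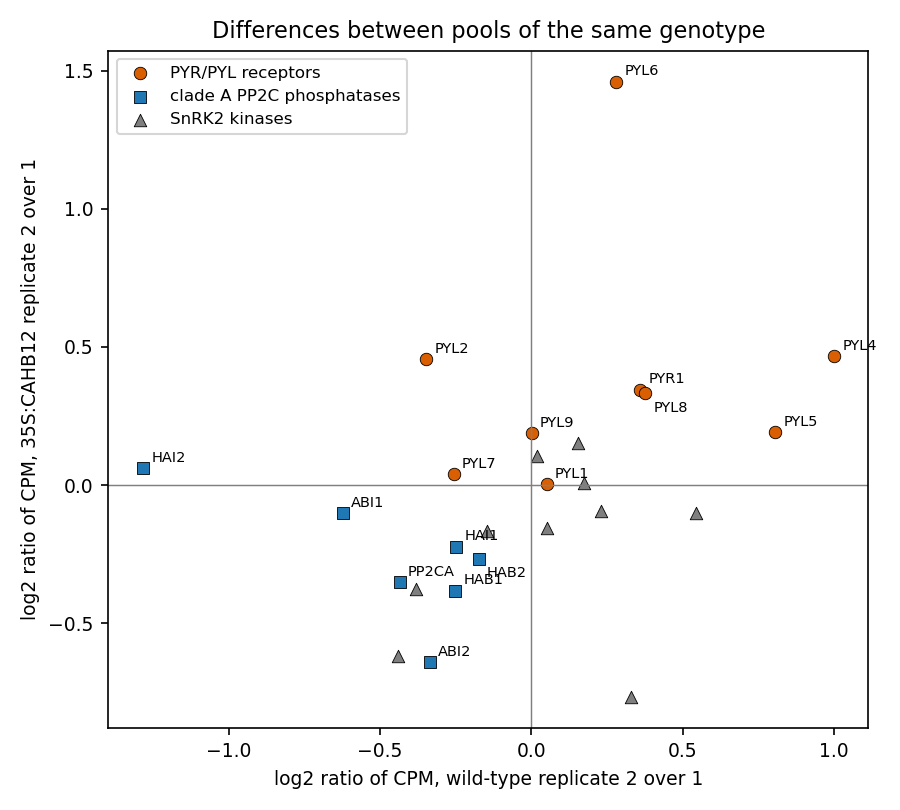
Log2 ratio of CPM, replicate 2 over replicate 1, in WT (horizontal axis) and in CAHB12 seedlings (vertical axis), with 1 point per gene. Receptors are orange circles, clade A PP2C genes blue squares and SnRK2 kinases grey triangles. PYL4 lies at 1.00 and 0.47, while PP2CA lies at -0.43 and -0.35.

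Of the rest of the ABA pathway, edgeR called 0 of 51 tested genes between the genotypes, against 0.0838% of all genes, and limma also called 0. An unadjusted p under 0.05 was reached by 1 higher and 7 lower, against 3.7% and 4.22% of all genes. DESeq2 called 2 of the 51 to which it gave an adjusted p, against 0.374% of all genes. COR15A was called lower and the seed gene EM1 higher (named after its values were seen). EM1 had 7 and 7 counts in WT and 18 and 84 counts in CAHB12 seedlings, and the seed markers were highest in the same library, CAHB12 pool 2. Without WT pool 2, edgeR called 8 of 52 as lower (ABI1, HAI2, MYB44, MYB73, MYB77, CYP707A3, RD22 and RD29A), where that fit called 257 of all genes, or 1.25%, as lower. Without CAHB12 pool 1 it called EM1 as higher.

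The PP2C genes as a list had -0.20 as the median log2 fold change of 7 genes, with 0 called in either direction, 6 below 0 and 1 above. ABI1, a founding member of the clade, had 83.3 and 54.1 CPM in WT and 54.4 and 50.7 CPM in CAHB12 seedlings, so WT pool 1 stood above the other libraries. HAI2, an ABA-induced phosphatase gene, had 8.68 and 3.57 CPM in WT and 3.41 and 3.56 CPM in CAHB12 seedlings, with the same library apart. Leaving out WT pool 1 took their log2 fold changes from -0.38 and -0.79 to -0.041 and -0.033. The SnRK2 kinases had a median of 0.095 over 10 genes, with 0 called, 9 above 0 and 1 below. SNRK2.9 and SNRK2.7 had the smallest p among them, with log2 fold changes of 0.16 and 0.39, and for SNRK2.7 the value turned to -0.048 without CAHB12 pool 1.

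The ABF factors and ABI5 had 0 called of 5 and a median of -0.24, with 5 of 5 below 0. ABF3 and ABF2 had log2 fold changes of -0.36 and -0.34, which became -0.19 for ABF3 without CAHB12 pool 2 and -0.083 for ABF2 without WT pool 1. ABA synthesis genes had 0 called of 5 and a median of -0.18, also with 5 of 5 below 0, and AAO3 and NCED3 had -0.19 and -0.43. The NCED3 value became -0.099 without WT pool 1 and -0.098 without CAHB12 pool 2. ABA catabolism and transport genes had 0 called of 6 and a median of -0.11. CYP707A3, an ABA hydroxylase gene, had -1.21, which was -0.22 without WT pool 1, and CYP707A1 had 0.37. The receptor partners and turnover factors had 0 called of 8 and a median of -0.0069. MYB44 and MYB77, transcription factors that bind PYL8, had -0.63 and -1.17, which became -0.20 and 0.0054 without WT pool 1. The ABA-induced output genes had 0 called of 10 and a median of -0.32, with COR15A and RD22 at -0.49 and -0.48.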

How the data were processed

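The values used were raw read counts per gene locus, as deposited by the authors and per the file headers, in 4 mRNA libraries. BWA 0.5.8c, Bowtie, edgeR and the TAIR9 build appear in the submitters' processing notes, and the sources used here do not say which of them made the counts. The lengths (other unit, in bases) are the authors' deposited ones. Another 8 per-sample columns (CPM and RPKM) and the small RNA table were not used. CPM here used TMM factors, and RPKM also the deposited lengths. Names, spans and overlaps came from RefSeq TAIR10.1, which matched 98.6% of loci, and no coordinates or sequences are given.

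edgeR 4.0.16 in R 4.3.3 (filterByExpr, TMM, glmQLFit, glmQLFTest, no covariate) was fitted on all loci, and calls needed an adjusted p (Benjamini-Hochberg) under 0.05. Biological variation (common coefficient) came to 0.103. SE is the log2 fold change over the root of F. The script was tested on simulated data with the same biological variation for every gene and no pool difference. That checks the code and not the error rates in these data. A count of 0 allows 0.155 to 0.192 CPM (3 counts per library, counting error only). Receptors and lists were chosen with earlier results of these data known. Named were the 9 receptors, the 2 pathway genes per list with the smallest p, and the 3 genes most like PYL6 and PYL4 (log2 CPM, prior 2). Alternatives were RLE or no factors, no filter, a robust fit, DESeq2 1.42.0, a replicate block, leaving out each library, and limma 3.58.1 on log2(RPKM + 0.5) or log2(RPKM + 0.1). Gene spans as lengths were added after seeing the data. Figures used Python 3.11.15 and matplotlib 3.10.9.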

Additional observations from a re-analysis of the deposited data

How the results depend on the processing

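Between the genotypes 17 genes were called, and 17 with RLE factors, 18 with no factors and 17 with no filter. The count was 76 with DESeq2, 10 and 10 with limma at pseudocounts of 0.5 and 0.1, 31 with robust fitting, and from 16 to 411 with 1 library left out (411 without WT pool 2, 72 without WT pool 1). Of 108 receptor values under these alternatives, 97 kept their direction and side of the threshold, 9 reversed and 2 passed. The reversals were PYR1 at 0.13 (without WT pool 2) and 0.0998 (without CAHB12 pool 1), PYL5 at 0.20 (without WT pool 2), PYL7 at 0.015 (without WT pool 1), and PYL4 at 0.059 and 0.060 with limma, 0.57 (without WT pool 2), 0.20 (without CAHB12 pool 1) and 0.048 with the replicate block. PYL4 ran from -0.42 to 0.57 with 1 library left out, PYL5 from -0.60 to 0.20, PYL7 from -0.25 to 0.015 and PYR1 from -0.24 to 0.13. The cause was not tested.

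The labels do not say that replicate numbers pair the pools. The deviations of same-numbered libraries correlated at 0.259 over genes. With the replicate block the count was 596 genes, PYL6 passed at -1.92 (edgeR adjusted p = 0.0081, range over its alternatives 0.0081 to 0.466) and PYL8 at 0.39 (edgeR adjusted p = 0.0143, range 0.0143 to 0.9999). Of the other ABA pathway genes 10 of 51 passed with the block, EM1 as higher and COR15A, RD22, RD29A, NCED3, ABF3, MYB44, MYB73, MYB77 and CYP707A3 as lower, against 2.94% of all genes. That fit leaves 1 residual degree of freedom per gene.

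Reversals of other genes were SNRK2.7 at -0.048 (without CAHB12 pool 1), MYB77 at 0.0054 (without WT pool 1), IAA29, PMT6 and AT1G59710 at -0.41, -0.29 and -0.31 (without WT pool 1) and at -0.24, -0.19 and -0.18 (without CAHB12 pool 2). With 1 library left out they ran up to 0.72 (SNRK2.7), 0.68 (IAA29), 0.64 (PMT6) and 0.50 (AT1G59710), and MYB77 down to -1.83. Between the replicate numbers 584 genes were called, 795 with RLE factors, 679 with no filter, 95 with DESeq2 and 0 with no genotype term. There PYL2 reversed from -0.012 to 0.034 with DESeq2.

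The subfamily shares depend on the lengths. Without lengths, subfamily I had 29.3% in WT and 32.7% in CAHB12 seedlings, and subfamily III 30.4% and 28.5%. With later gene spans subfamily III had 34.5% and 32.9%, and in CAHB12 seedlings subfamily I had 26.9% and subfamily II 40.2%. With 1 library left out the shares in WT ran from 18.9% to 24.5% (I), 33.1% to 45.0% (II) and 36.1% to 42.3% (III), and in CAHB12 seedlings from 23.8% to 25.1%, 36.9% to 39.5% and 36.7% to 38.0%. The deposited RPKM columns were not run as an alternative. Depth limits PYL6 and PYL2, with at most 57 and 33 counts in a library. Where leaving out a pool left 1 library of a genotype, that library was assumed to vary like those of the other genotype.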
